A study of Mus musculus with 9 samples.

Results

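Toll-like receptors (TLRs) were examined as a gene family in the tibia of 9 mice. The members were taken by name, namely Tlr1, Tlr2, Tlr3, Tlr4, Tlr5, Tlr6, Tlr7, Tlr8, Tlr9 and Tlr13, and all 10 were found among the 18272 genes of the table. All 10 also passed the filter of at least 10 counts in at least 3 libraries, as did 13960 genes in all. Tlr9 reached 10 counts in only 4 of the 9 libraries, Tlr1 in 7, Tlr6, Tlr7, Tlr8 and Tlr13 in 8, and Tlr2, Tlr3, Tlr4 and Tlr5 in all 9. Tlr11 and Tlr12, which the family list used here leaves out, had at most 34 and 17 counts in any library.

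RNA-seq was carried out on whole tibia of female C57BL/6J mice, bought at 10 to 11 weeks of age, with 1 library per mouse. The 3 NGT mice had normal glucose tolerance, were injected with citrate vehicle in place of the diabetes-inducing toxin, and carry the treatment label saline. The 3 T1D mice had type 1 diabetes from 1 injection of streptozotocin (150 mg/kg), a toxin that destroys insulin-producing beta cells, and also received saline. The 3 Lira mice had the same diabetes and received liraglutide, a GLP-1 receptor agonist, at 0.6 mg/kg a day. Treatment lasted 8 weeks, but the label of Lira mouse 3 gives 9 weeks. Diabetes of this kind follows from a chemical and not from autoimmunity, which limits the T1D group as a model of the human disease. The comparison of T1D with NGT asks how diabetes changes the bone, and that of Lira with T1D asks what the drug changes in diabetic bone.

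TLRs are innate immune receptors that recognize conserved microbial molecules and some products of damaged cells. After binding a ligand they recruit the adaptors Myd88 or Ticam1 and activate NF-κB, mitogen-activated kinases and interferon regulatory factors. Macrophages, neutrophils, dendritic cells and B cells carry most members, and in bone TLR signals are known to act on osteoclast precursors as well as on osteoblasts. Tlr1, Tlr2, Tlr4, Tlr5 and Tlr6 act at the cell surface, whereas Tlr3, Tlr7, Tlr8, Tlr9 and Tlr13 sense nucleic acids inside endosomes.

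Libraries held 13086373 to 16528394 counts, of which the 10 members together received 223.52 to 1947.34. A set of 3 libraries stood apart from the other 6 in their content. NGT mouse 1, T1D mouse 1 and Lira mouse 3 had TMM scaling factors of 1.12 to 1.25, against 0.883 to 0.995 elsewhere, and the lowest summed levels of the skeletal muscle list. Although the bones were described as freed of muscle, the 10 muscle genes took 8.38% to 22.9% of the normalized counts of a library, and osteoblast and osteocyte genes took 0.0207% to 0.559%. Of the 11 osteoblast and osteocyte markers, Sost, Sp7 and Bglap were at 0 in at least 1 library. In whole tissue, fewer cells of a type and less RNA per cell cannot be told apart. P-values set the difference between groups against the spread between mice, and 3 mice against 3 allow no exact permutation p under 0.1.

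Promoters were inspected for motifs of myeloid and inflammatory transcription factors, because several members were high in the same libraries. RefSeq promoter windows (GRCm38.p6, 250 bases before to 50 after each start) were found for 8 of the 10 members, with 10 windows in all. Tlr4 and Tlr7 had no window and were not searched. The motifs searched on both strands were GAGGAAGT, an ETS core with a flank of the PU.1 type, and GGGACTTTC, part of an NF-κB site. A further motif, GGGAATTCC, another NF-κB form, was added after the Tlr2 sequence had been read. GAGGAAGT was found in the windows of Tlr1 and Tlr9 and in 3.20% of all 32851 windows. GGGACTTTC was in no member window and in 0.353% of all windows, and GGGAATTCC was in that of Tlr2 and in 0.225% of all. The stretches that hold a match are given 5′ to 3′ on the strand of the gene, with the match in capitals. They lie at chr5:64933559-64933621 on the minus strand for Tlr1, with the match at positions -23 to -16 from the start, at chr9:106222597-106222626 on the plus strand for Tlr9, with the match on the opposite strand 11 to 18 bases after the start, and at chr3:83841732-83841820 on the minus strand for Tlr2, with the match at positions -172 to -164. A match is a description of the letters and not of bound factor.
Tlr1: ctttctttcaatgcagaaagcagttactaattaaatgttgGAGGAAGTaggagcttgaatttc
Tlr9: gtgaaagtgtcACTTCCTCaattctctgag
Tlr2: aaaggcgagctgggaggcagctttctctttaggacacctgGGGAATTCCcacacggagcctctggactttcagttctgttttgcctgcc

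Levels of different members were compared on the deposited FPKM scale, which accounts for gene length. All members were expressed at a low level. Over the 9 libraries Tlr4, the lipopolysaccharide receptor, had the highest mean FPKM, 1.94 ± 1.19 (SD, n = 9), followed by Tlr2, which recognizes bacterial lipoproteins, at 1.73 ± 2.63. Tlr13, a mouse sensor of bacterial ribosomal RNA, had a mean FPKM of 1.36 ± 1.54, and Tlr3, the sensor of double-stranded RNA, one of 0.954 ± 0.549. Then came Tlr8 (0.821 FPKM), Tlr1 (0.803 FPKM), Tlr7 (0.773 FPKM), Tlr6 (0.514 FPKM), Tlr5 (0.431 FPKM) and Tlr9 (0.248 FPKM). This order rests in part on T1D mouse 1. Without that library Tlr2 had a mean FPKM of 0.884, below Tlr13 at 0.973, and Tlr8 one of 0.478, below Tlr1 at 0.590 and Tlr7 at 0.500, while Tlr4 stayed first (1.59 FPKM) and Tlr9 last (0.219 FPKM). By the median over 9 libraries, Tlr4 (1.56 FPKM) was followed by Tlr3 (0.74 FPKM), Tlr13 (0.73 FPKM) and Tlr2 (0.67 FPKM), and Tlr8 (0.28 FPKM) came just before Tlr9 (0.17 FPKM). Most neighbours in the order of means could not be separated beyond the spread between libraries. Tlr4 was above Tlr2 in 8 of 9 libraries, Tlr3 above Tlr8 in 7 and Tlr5 above Tlr9 in 7, while Tlr2 was above Tlr13 in 6, Tlr13 above Tlr3 in 5, Tlr1 above Tlr7 in 5 and Tlr6 above Tlr5 in 5. Tlr8, although ahead in the mean, was above Tlr1 in only 3 libraries, and Tlr7 was above Tlr6 in only 4. Tlr1 and Tlr6, whose genes neighbour each other and whose proteins are close relatives, were the only members with counts that are not whole, in all 9 libraries. How reads that match both genes were counted is not given in the sources used here, so their values are uncertain.

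**Figure D1:**
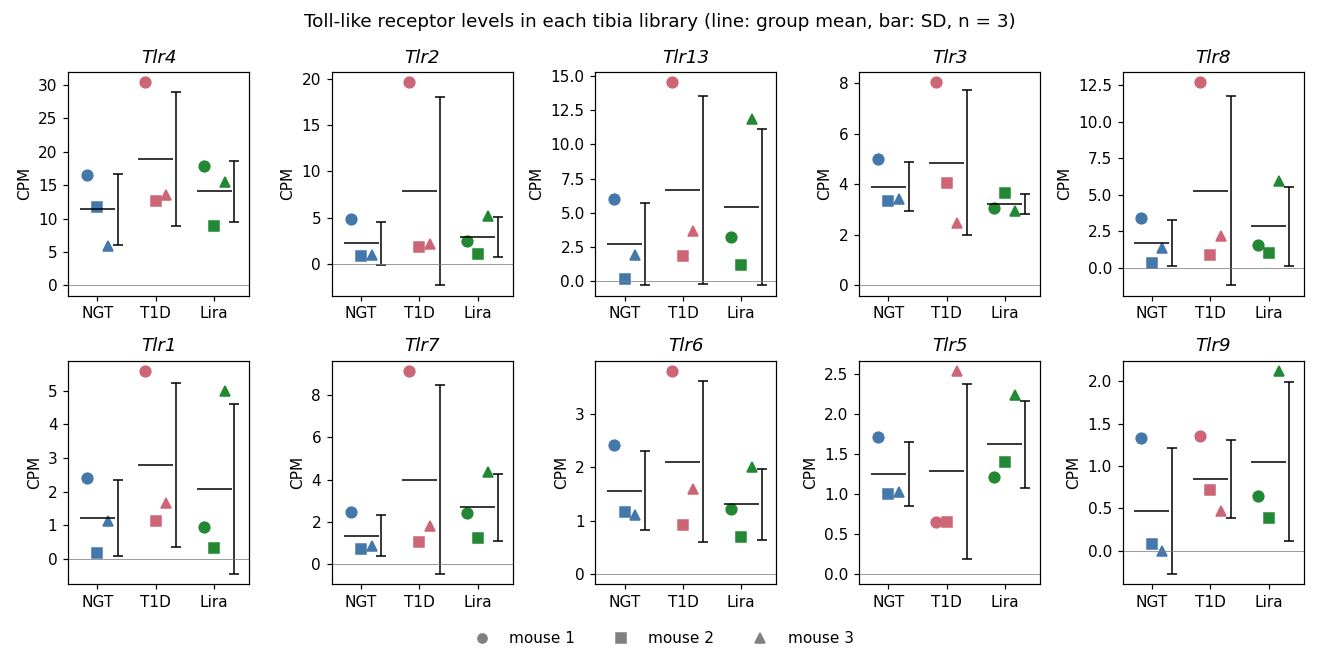
Level of each Toll-like receptor in CPM (counts scaled to library size, vertical axis, linear, own scale per panel) in 3 NGT, 3 T1D and 3 Lira libraries, with the symbol giving the mouse number, the line the group mean and the bar the SD. T1D mouse 1 is the highest library for 8 of the 10 members, Tlr5 is highest in T1D mouse 3 and Tlr9 in Lira mouse 3.

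Among the cell-surface members, Tlr4 had 16.4, 11.8 and 5.94 CPM in NGT mice 1, 2 and 3. In T1D mice 1, 2 and 3 its level was 30.4, 12.6 and 13.5 CPM, and in Lira mice 1, 2 and 3 it was 17.8, 8.96 and 15.4 CPM. T1D mouse 1 was above all other libraries, and T1D mice 2 and 3 lay within the range of NGT, so that the groups overlapped. Tlr2 had 4.89, 0.851 and 0.950 CPM in the NGT mice, 19.6, 1.83 and 2.13 CPM in the T1D mice and 2.43, 1.09 and 5.22 CPM in the Lira mice. T1D mouse 1 held 85.7% of the Tlr2 counts of its group and was 3.76 times as high as the next library, Lira mouse 3. T1D mice 2 and 3 lay between the NGT mice.

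Tlr1 and Tlr6 each form a heterodimer with Tlr2, for triacylated and diacylated lipopeptides. Tlr1 was at 2.41, 0.155 and 1.11 CPM in NGT, 5.60, 1.11 and 1.67 CPM in T1D and 0.928, 0.312 and 4.99 CPM in Lira. Tlr6 was at 2.41, 1.16 and 1.11 CPM in NGT, 3.81, 0.917 and 1.60 CPM in T1D and 1.21, 0.701 and 2.01 CPM in Lira. For both, the highest library of each group was NGT mouse 1, T1D mouse 1 and Lira mouse 3, and all 3 groups overlapped. Tlr5, the flagellin receptor, went another way. It was at 1.71, 1.01 and 1.03 CPM in NGT, 0.652, 0.655 and 2.53 CPM in T1D and 1.21, 1.40 and 2.24 CPM in Lira. T1D mouse 1, the top library for most members, was with T1D mouse 2 the lowest of all 9 for Tlr5, at 12 and 10 counts, and T1D mouse 3 was the highest.

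Among the endosomal members, Tlr13 had the widest range. It was at 6.03, 0.155 and 1.90 CPM in NGT, 14.6, 1.83 and 3.67 CPM in T1D and 3.21, 1.17 and 11.9 CPM in Lira, and the low value of NGT mouse 2 rests on 2 counts. Tlr7 and Tlr8, neighbouring genes whose proteins sense single-stranded RNA and its breakdown products, followed the same order of libraries at the top. Tlr7 was at 2.47, 0.696 and 0.871 CPM in NGT, 9.13, 1.05 and 1.80 CPM in T1D and 2.43, 1.25 and 4.36 CPM in Lira. Tlr8 was at 3.43, 0.309 and 1.35 CPM in NGT, 12.7, 0.917 and 2.20 CPM in T1D and 1.57, 1.01 and 5.97 CPM in Lira. T1D mouse 1 held 79.6% of the T1D counts of Tlr7 and 83.3% of those of Tlr8, and in both genes T1D mice 2 and 3 lay inside the NGT range.

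Tlr3 varied the least of the endosomal members that were detected in every library. It was at 5.01, 3.33 and 3.40 CPM in NGT, 8.05, 4.06 and 2.47 CPM in T1D and 3.07, 3.66 and 2.93 CPM in Lira, so that T1D held both its highest and its lowest library. Tlr9, the receptor for unmethylated CpG DNA, was at 1.33, 0.0773 and 0 CPM in NGT, 1.36, 0.720 and 0.467 CPM in T1D and 0.642, 0.389 and 2.12 CPM in Lira. Its value in NGT mouse 2 rests on 1 count, and the 0 of NGT mouse 3 allows a level of up to 0.237 CPM, which is 3 counts in that library and covers counting error only. All 3 groups overlapped for both genes.

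Of the 10 members, 8 were highest in T1D mouse 1, which was the highest library for 20.7% of the 13960 tested genes. For 7 members (Tlr1, Tlr2, Tlr6, Tlr7, Tlr8, Tlr9 and Tlr13) the 3 highest libraries were NGT mouse 1, T1D mouse 1 and Lira mouse 3, which held for 12.1% of tested genes. The set of 3 libraries was chosen after the values had been seen. Summed over the 10 members, FPKM was 12.3, 3.17 and 3.39 in NGT, 31.0, 5.19 and 6.22 in T1D and 6.20, 3.67 and 15.0 in Lira. T1D mouse 1 was more than 2 times as high as Lira mouse 3, the next library, and NGT mouse 1 came next.

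The make-up of the family also differed between libraries. Tlr4 supplied between 14.3% and 41.3% of the summed FPKM of the members, Tlr13 between 0.946% and 21.9% and Tlr2 between 8.20% and 27.4%. NGT mouse 2 had the largest share of Tlr4 and the smallest of Tlr13, Lira mouse 3 the reverse, and T1D mouse 1 the largest share of Tlr2. Endosomal members made up 43.1%, 29.7% and 45.7% in NGT, 44.3%, 39.3% and 37.5% in T1D and 38.7%, 43.6% and 49.97% in Lira. These shares overlapped between all groups.

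**Figure D2:**
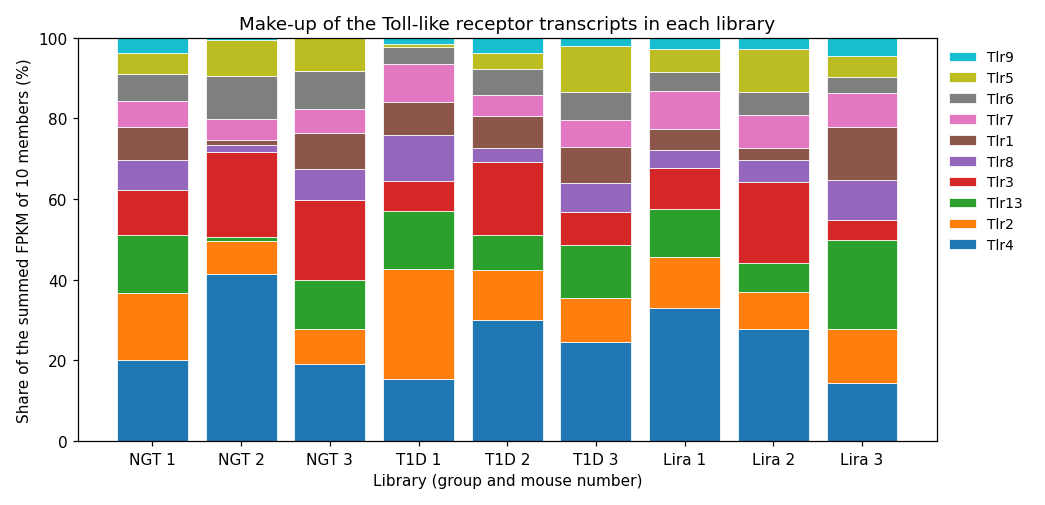
Share of each Toll-like receptor in the summed FPKM of the 10 members (vertical axis, percent) for the 9 libraries on the horizontal axis. The Tlr4 share runs from 14.3% in Lira mouse 3 to 41.3% in NGT mouse 2, and the Tlr13 share from 0.946% in NGT mouse 2 to 21.9% in Lira mouse 3.

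In the comparison of T1D with NGT, no member was called. A call required an adjusted p under 0.05 (edgeR quasi-likelihood test, Benjamini-Hochberg adjustment) and a fold change over 2, and 0% of all tested genes met it. At an unadjusted p under 0.05, the test counted 0 of 10 members and 3.95% of all tested genes, and DESeq2 counted 0 of 10 members and 4.99% of tested genes. All 10 members were higher in T1D in the fit, as were 52.1% of tested genes, but Tlr5 only by 0.03 on the log2 scale, and it was lower with library sizes in place of TMM or with FPKM. The median log2 fold change was 0.99 for the members and 0.02 for all tested genes. It was 0.73 for the 5 cell-surface and 1.30 for the 5 endosomal members, and 0.17 and 0.02 without T1D mouse 1, so that the order of these medians turned with 1 library.

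Tlr2 had the largest log2 fold change in T1D, 1.81 ± 1.10 (SE), with an adjusted p of 0.977 by edgeR's quasi-likelihood test. Tlr8 followed at 1.63 ± 1.15, Tlr7 at 1.56 ± 0.89, Tlr13 at 1.30 ± 1.22 and Tlr1 at 1.18 ± 1.14. Tlr9 (0.80 ± 1.20), Tlr4 (0.73 ± 0.47), Tlr6 (0.43 ± 0.63), Tlr3 (0.31 ± 0.43) and Tlr5 (0.03 ± 0.61) had smaller log2 fold changes. For each member the spread between mice was large beside the difference, with edgeR adjusted p-values of 0.977 to 0.997 and exact two-sided permutation p-values of 0.3 to 1. In none of the 10 members was every T1D library above every NGT library, a pattern held by 3.52% of tested genes.

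In the fit of group means, leaving out T1D mouse 1 alone lowered the log2 fold change of 9 of the 10 members. For Tlr3 and Tlr6 it reversed the difference, from 0.31 and 0.43, rather than removing it. The log2 fold change of Tlr2 then became -0.18, that of Tlr8 -0.13, that of Tlr3 -0.26 and that of Tlr6 -0.31, all turning sign. Tlr7 stood at 0.07, Tlr13 at 0.02, Tlr1 at 0.17, Tlr4 at 0.20 and Tlr9 at 0.28, and Tlr5 went the other way, to 0.34. A total of 6 members (Tlr1, Tlr4, Tlr5, Tlr7, Tlr9 and Tlr13) were still higher in T1D, with 48.6% of tested genes higher in the same fit. The median over the members was 0.04, and over all tested genes -0.01. This fit keeps NGT mouse 1, which is the highest NGT library for all 10 members and carries the same number as the mouse left out, and compares no mouse with its own number.

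**Figure D3:**
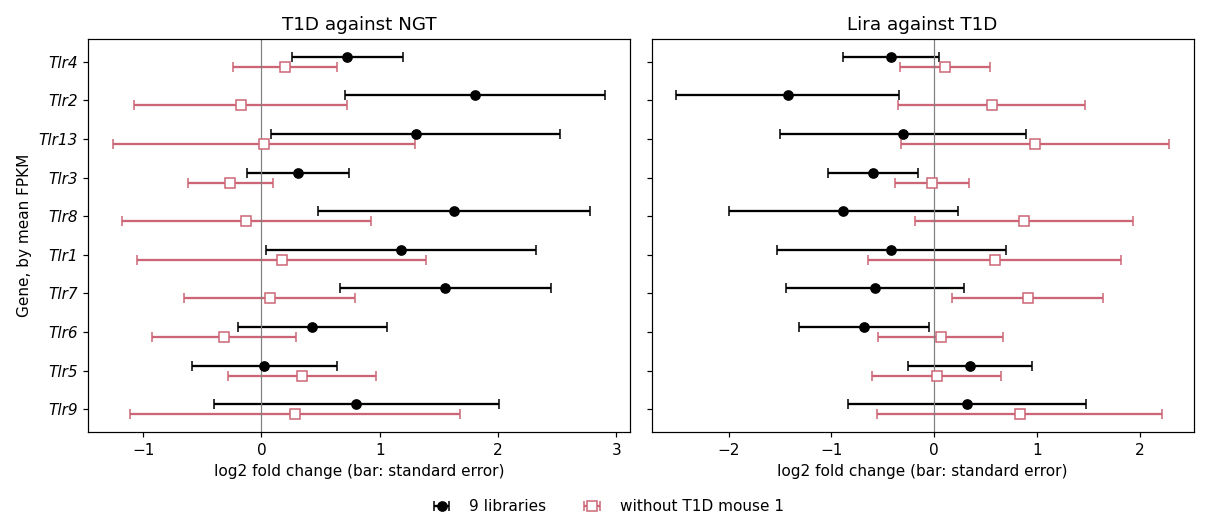
Log2 fold change of each Toll-like receptor (horizontal axis, bars are standard errors) for T1D against NGT (left) and Lira against T1D (right), from all 9 libraries (filled circles) and without T1D mouse 1 (open squares). Tlr2 moves from 1.81 to -0.18 on the left and from -1.43 to 0.56 on the right once T1D mouse 1 is left out.

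The mice carry the numbers 1 to 3 in every group, and the labels do not say what a number shares. Across genes the deviations of an NGT mouse and its same-numbered T1D mouse were positively correlated (r = 0.583, 0.647 and 0.283). The Lira mice did not follow their numbers in the same way. Their r was -0.244, 0.615 and 0.271 with T1D mice, and -0.173, 0.727 and 0.012 with NGT mice. Within same-numbered mice, T1D was above NGT in all 3 pairs for 7 members (Tlr1, Tlr2, Tlr4, Tlr7, Tlr8, Tlr9 and Tlr13), as it was for 19.2% of tested genes. For Tlr2 the differences of log2(CPM + 1) were 1.81, 0.61 and 0.68 in pairs 1, 2 and 3, for Tlr13 they were 1.15, 1.29 and 0.69, and for Tlr4 they were 0.85, 0.09 and 1.07. Those of Tlr8 were 1.63, 0.55 and 0.45, so that for Tlr2, Tlr8 and Tlr13 pairs 2 and 3 were above 0 while the fit of group means without T1D mouse 1 was near 0 or below. Tlr5 was lower in T1D in pairs 1 and 2 and higher in pair 3, at -0.72, -0.28 and 0.80. These numbers were taken as pairs from the data alone, so p-values from a fit that uses them are not independent of that choice. With the replicate number as a block and only these 2 groups, 6 members had an unadjusted p under 0.05, against 14.0% of all tested genes. They were Tlr2, Tlr8, Tlr13, Tlr7, Tlr4 and Tlr1, in order of unadjusted p-values from 0.0047 to 0.041 in edgeR's quasi-likelihood test. None passed after adjustment over all genes, with a lowest adjusted p of 0.233 for Tlr2 in the same edgeR fit. With the block over all 9 libraries, 0 of 10 members and 5.39% of tested genes had an unadjusted p under 0.05.

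In the comparison of Lira with T1D, again no member was called, and 0% of all tested genes were. At an unadjusted p under 0.05, edgeR counted 0 of 10 members and 3.33% of tested genes, edgeR with the replicate block 0 members and 3.63%, and DESeq2 0 members and 4.44%. Of the 10 members, 8 were lower in Lira in the fit, as were 44.7% of tested genes, and Tlr5 and Tlr9 were higher. The median log2 fold change was -0.50 for the members and 0.04 for all tested genes. T1D mice stand in both comparisons, so that a high T1D library enters both with opposite sign.

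Tlr2 had a log2 fold change of -1.43 ± 1.08 (SE) in Lira, Tlr8 one of -0.88 ± 1.12 and Tlr6 one of -0.68 ± 0.63. Tlr3 stood at -0.60 ± 0.43, Tlr7 at -0.57 ± 0.86, Tlr4 at -0.42 ± 0.47, Tlr1 at -0.42 ± 1.11 and Tlr13 at -0.30 ± 1.20. Tlr5 (0.35 ± 0.60) and Tlr9 (0.32 ± 1.16) had positive log2 fold changes. Adjusted p-values lay between 0.978 and 0.987 in edgeR's quasi-likelihood test. For no member was every Lira library below every T1D library, as it was for 3.40% of tested genes.

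Without T1D mouse 1 the sign turned for 7 of these 8 members. In all, 9 members were then higher in Lira, with 58.8% of tested genes higher in that fit, and Tlr3 was at -0.02. Tlr2 stood at 0.56, Tlr8 at 0.88, Tlr7 at 0.91, Tlr13 at 0.98 and Tlr4 at 0.11 on the log2 scale. An F test across the 3 groups gave an adjusted p of 0.994 for every member with edgeR. It called 0% of all tested genes, and 2.41% had an unadjusted p under 0.05, with 0 members among them.

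Some cell type marker lists were high in the same libraries as the receptors, and others were not. The summed level of 14 macrophage and monocyte genes was 470, 111 and 183 CPM in NGT, 2283 CPM in T1D mouse 1, 172 and 302 CPM in T1D mice 2 and 3, and 238, 223 and 746 CPM in Lira. Neutrophil genes summed to 2417, 9.67 and 456 CPM in NGT, 1292, 59.6 and 1493 CPM in T1D and 761, 118 and 5221 CPM in Lira. The 10 muscle genes ran the other way, with the lowest sum, 83831 CPM, in T1D mouse 1 and the highest, 229185 CPM, in NGT mouse 3. T1D mouse 1 was thus the highest library for macrophage genes and Lira mouse 3 the highest for neutrophil genes. All 14 macrophage markers were detected in every library, while 4 of 12 neutrophil markers (Retnlg, Mmp8, Mpo and Ly6g) were at 0 in at least 1. Of the 14 macrophage genes, 5 (Adgre1, Cd68, C1qa, C1qb and C1qc) had an unadjusted p under 0.05 in T1D against NGT, against 3.95% of tested genes. All 5 had a higher level in T1D. Their log2 fold changes of 2.54 to 3.36 were 0.29 to 0.63 without T1D mouse 1. In Lira against T1D, C1qb and C1qc were lower at an unadjusted p under 0.05 in edgeR, against 3.33% of tested genes. Their log2 fold changes of -2.83 and -2.48 were -0.03 and 0.13 without T1D mouse 1. Osteoclast genes summed to 167, 9.90 and 57.8 CPM in NGT, 376, 96.8 and 297 CPM in T1D and 140, 21.3 and 350 CPM in Lira. Of the 8 osteoclast genes tested, 7 were higher in T1D than in NGT with and without T1D mouse 1, with a median log2 fold change of 1.84 and 1.40. Ctsk, the collagen-degrading protease of osteoclasts, was the one with an unadjusted p under 0.05, 0.042 in edgeR. B cell genes summed to 111, 19.7 and 38.4 CPM in NGT, 90.7, 50.7 and 52.0 CPM in T1D and 64.1, 35.6 and 246 CPM in Lira. Osteoclast genes were higher in T1D mouse 3 than in NGT mouse 1, and neutrophil genes higher in T1D mouse 3 than in T1D mouse 1. Erythroid genes summed to 6605, 390 and 2575 CPM in NGT, 1944, 493 and 19027 CPM in T1D and 4138, 829.7 and 29101 CPM in Lira, so that T1D mouse 1 was not among the highest. Endothelial genes ranged from 266 to 473 CPM and were lowest in T1D mouse 1 and Lira mouse 3. Osteoblast and osteocyte genes summed to 1398, 207 and 1336 CPM in NGT, 5594, 708 and 702 CPM in T1D and 884, 419 and 1220 CPM in Lira, with 9 of 11 genes highest in T1D mouse 1, the top library of the receptors. The 4 tested T and NK cell genes summed highest in Lira mouse 3 (9.64 CPM), T1D mouse 1 (8.97) and NGT mouse 1 (5.08). A plasmacytoid dendritic cell list was highest in Lira mouse 2, at 1218 CPM, of which Cox6a2 held 1209 CPM. The part of all these cells in the receptor levels was not tested.

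**Figure D4:**
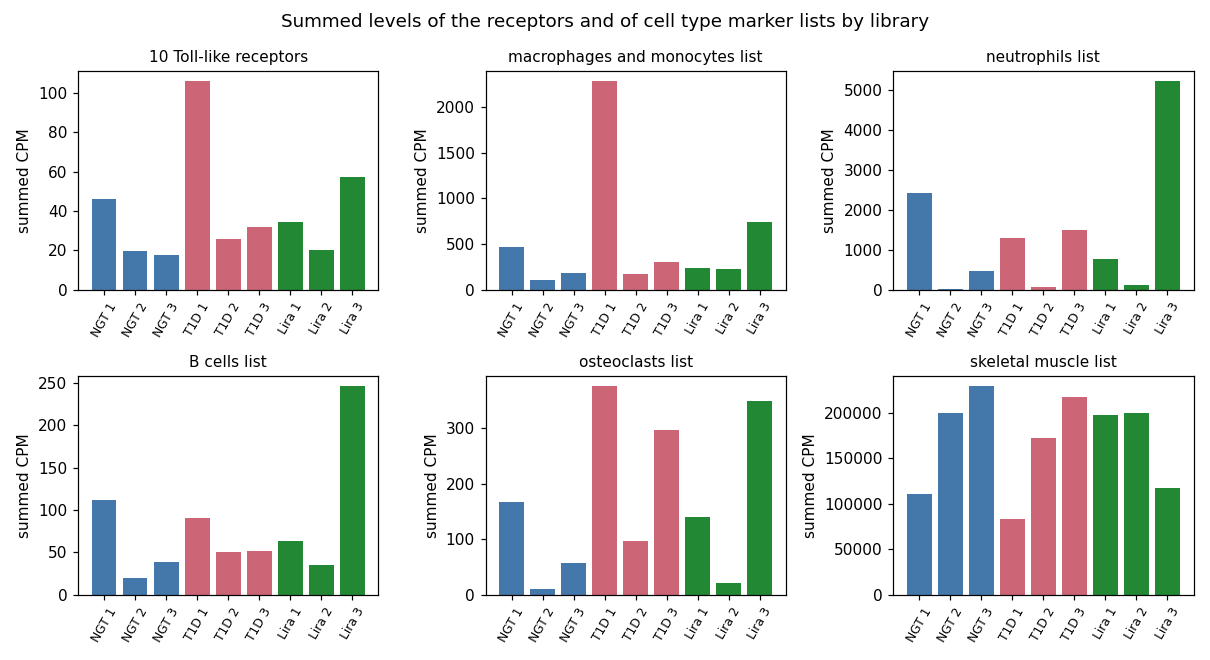
Summed CPM (vertical axis, linear from 0) of the 10 Toll-like receptors and of 5 marker gene lists in each of the 9 libraries. T1D mouse 1 is highest for the receptors and for the macrophage list (2283 CPM) and lowest for the muscle list (83831 CPM), and Lira mouse 3 is highest for the neutrophil list (5221 CPM).

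Genes whose log2(CPM + 1) followed a member most closely over the 9 libraries were sought among tested genes with a mean of at least 5 CPM. These coefficients describe 9 points that share depth and cell content. Tlr13 was most like Cd48 and Tyrobp (Pearson r = 0.997 for both) and Fcer1g, which code for leukocyte surface and signalling proteins, and Tlr8 was most like Lyz2 (r = 0.995), the lysozyme of myeloid cells, with Apobec1 and Lyz1 next. For Tlr7 the closest genes included Bst1 and Nfkbiz, an inhibitor-related NF-κB regulator. Tlr1 was closest to Itgb7 (r = 0.994), Gsap and Ppia, Tlr2 to Tagln2 (r = 0.992), Ccnd2 and Ywhab, Tlr6 to Iah1 (r = 0.981), Coq8b and Cyb5a, and Tlr9 to Mical1 (r = 0.983), Ero1l and Chst15. Of the macrophage list, 3 genes were among the 50 most like Tlr7 and 1 each among those most like Tlr1, Tlr2, Tlr8 and Tlr13.

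Tlr3, Tlr4 and Tlr5 had other partners. Tlr3 was most like Col5a3 (r = 0.971), a fibrillar collagen gene, with Rras and Thbs3, and Tlr4 was most like Ldlrad3 (r = 0.967), Smoc1 and Fabp4, the fatty acid carrier of adipocytes. Tlr5 was most like Lin9, Tfrc, the transferrin receptor, and Rexo1, at r of at most 0.949. No gene of any marker list was among the 50 most like Tlr3, Tlr4, Tlr5, Tlr6 or Tlr9. Markers with a mean under 5 CPM could not be among them. These included all 4 tested T and NK cell genes, and Siglech, Ccr9 and Pacsin1 of a plasmacytoid dendritic cell list. The B cell genes Ms4a1, Pax5, Vpreb1, Vpreb3 and Igll1 were also below that level.

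The rest of the pathway was read from lists of named genes, and no gene of any list was called in either comparison. Over the 8 lists, 77 genes were tested, and 6 of them had an unadjusted p under 0.05 in T1D against NGT, against 3.95% of all tested genes. In the fit 60 of the 77 were higher in T1D, against 52.1% of all tested genes, and 40 were without T1D mouse 1, against 48.6%. For 6 of the 77 every T1D library was above every NGT library, against 3.52% of all tested genes. Co-receptors, which present ligands to surface TLRs, had 5 of 6 genes higher in T1D in the fit, with a median log2 fold change of 1.48 and of 0.08 without T1D mouse 1. Cd14, which hands lipopolysaccharide to Tlr4, was the one with an unadjusted p under 0.05. It was at 1.40, 0.62 and 0.63 CPM in NGT, 9.19, 1.70 and 1.87 CPM in T1D and 1.93, 1.48 and 1.49 CPM in Lira. All T1D libraries were above all NGT libraries for Cd14, and its log2 fold change of 2.25 ± 0.72 (SE) became 1.00 without T1D mouse 1. The most abundant of the list were Cd36, a scavenger receptor, Lbp and Ly86.

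Genes for folding, transport and endosomal cleavage of TLRs were higher in T1D in 8 of 8 cases, with a median log2 fold change of 0.57, and of 0.29 without T1D mouse 1. Lgmn, a lysosomal protease, was at 30.6, 29.2 and 23.8 CPM in NGT, 120, 40.7 and 37.4 CPM in T1D and 36.6, 34.8 and 35.6 CPM in Lira. Ctss, cathepsin S of antigen-presenting cells, was at 19.9, 2.32 and 5.86 CPM in NGT, 494, 20.7 and 11.6 CPM in T1D and 12.8, 6.78 and 35.4 CPM in Lira. Slc15a4, a transporter needed for signalling from endosomal TLRs, was at 10.03, 14.7 and 13.1 CPM in NGT, 16.4, 25.7 and 15.2 CPM in T1D and 16.8, 13.01 and 12.7 CPM in Lira. The T1D and NGT libraries did not overlap for Lgmn and Slc15a4 but did for Ctss. Their log2 fold changes were 1.25 ± 0.41, 4.22 ± 1.53 and 0.60 ± 0.26 for Lgmn, Ctss and Slc15a4, and 0.48, 0.78 and 0.70 without T1D mouse 1, with unadjusted p-values of 0.015, 0.023 and 0.046 in edgeR from all 9 libraries. Ctsb, Hsp90b1, the chaperone of TLRs, and Ctsl were the most abundant of this list.

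**Figure D5:**
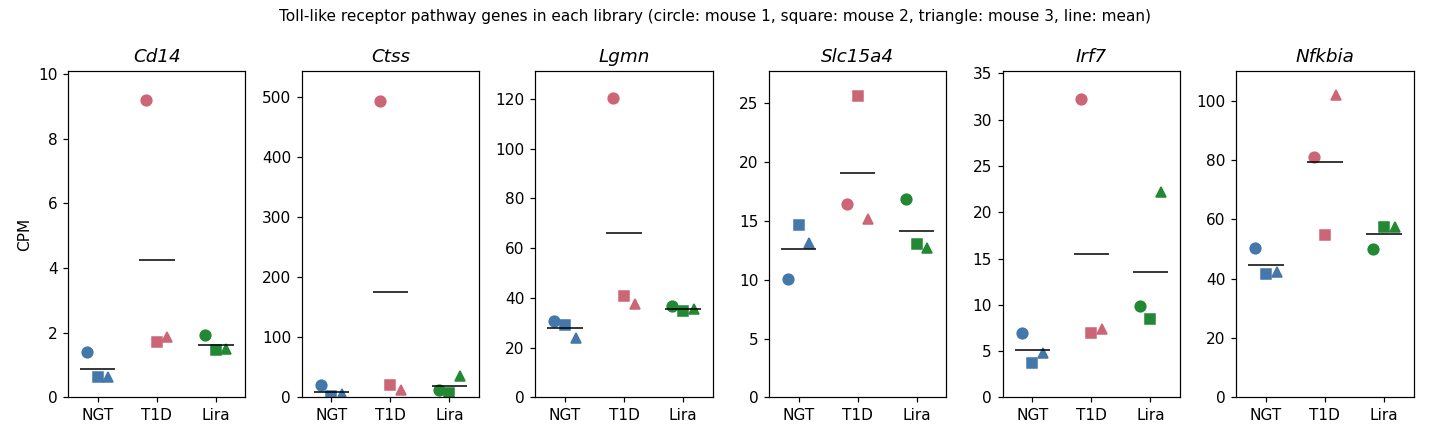
CPM (vertical axis, linear from 0, own scale per panel) of the 6 Toll-like receptor pathway genes with an unadjusted p under 0.05 in T1D against NGT, by group and mouse, with the group mean as a line. T1D mouse 1 is the top library for Cd14, Ctss, Lgmn and Irf7, T1D mouse 2 for Slc15a4 (25.7 CPM) and T1D mouse 3 for Nfkbia (102 CPM).

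Downstream of the receptors, adaptors were higher in T1D in 4 of 5 tested genes (median log2 fold change 0.48, and 0.02 without T1D mouse 1), and Tirap, Myd88 and Pik3ap1 were the most abundant. Kinases and ubiquitin ligases, led by Tab2, Map3k7 and Ube2n, were higher in 7 of 16 genes with a median of -0.03. Inhibitors of the pathway, led by Dusp1, Tollip and Cyld, were higher in 4 of 8 genes with a median of 0.00. No gene of these 3 lists had an unadjusted p under 0.05. Transcription factors, led by Nfkb1, Rela and Irf3, were higher in 9 of 9 genes, but with a median of 0.15, and of -0.07 without T1D mouse 1, and Irf7, which drives type I interferon genes, was the one with an unadjusted p under 0.05. Irf7 was at 6.98, 3.71 and 4.83 CPM in NGT, 32.2, 6.94 and 7.34 CPM in T1D and 9.85, 8.49 and 22.2 CPM in Lira, and the NGT and T1D libraries overlapped.

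Of 18 output genes of TLR signalling only 9 passed the filter, and 11 were at 0 in at least 1 library. Nfkbia, Nos2 and Ccl5 were the most abundant of those tested. All 9 were higher in T1D in the fit, with a median log2 fold change of 1.34, and of 0.03 without T1D mouse 1. Nfkbia, the NF-κB inhibitor that NF-κB itself induces, was at 50.5, 41.6 and 42.2 CPM in NGT, 81.1, 54.7 and 102 CPM in T1D and 49.96, 57.6 and 57.3 CPM in Lira. Every T1D library was above every NGT library, and T1D mouse 3, not T1D mouse 1, was the highest. Its log2 fold change in T1D was 0.82 ± 0.22 (SE), with an unadjusted p of 0.0054 and an adjusted p of 0.977 in edgeR's quasi-likelihood test, and it was 0.81 without T1D mouse 1. In Lira against T1D it stood at -0.53 ± 0.22, with an unadjusted p of 0.042 and an adjusted p of 0.978 in edgeR, and the groups overlapped. Nfkbia was thus the one pathway gene with an unadjusted p under 0.05 in both comparisons, which share the T1D mice.

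Pattern recognition receptors of other families, such as Mrc1, Nod1 and Ddx58, were higher in T1D in 14 of 16 tested genes, with a median log2 fold change of 0.60, and of 0.03 without T1D mouse 1. In Lira against T1D the list medians were -1.19 for co-receptors, -0.46 for folding and processing genes, 0.04 for adaptors, 0.11 for kinases, 0.01 for inhibitors, 0.05 for transcription factors, -1.04 for outputs and -0.26 for other receptors. Without T1D mouse 1 they were, in the same order, 0.10, -0.04, 0.70, 0.17, 0.18, 0.30, 0.32 and 0.46, so that the sign turned for co-receptors, outputs and other receptors.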

How the data were processed

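Tibial RNA of 9 mice, 3 in each of the NGT, T1D and Lira groups, was sequenced. The authors aligned clean reads to the mouse genome (mm9 in the submitters' processing notes, aligner and counter not given in the sources used here) and deposited expected counts, which are not normalized, and FPKM values scaled for length and depth. Gene coordinates of that build were not used here. Expected counts were rounded, as 30.2% were not whole. Genes reaching 10 counts in 3 or more of the 9 libraries were tested in R 4.3.3 with edgeR 4.0.16 (TMM, glmQLFit and glmQLFTest, 3 group means over 9 libraries, Benjamini-Hochberg adjustment over 13960 genes), which was tested on simulated data. CPM uses TMM-scaled library sizes, so that 3 counts are 0.163 to 0.238 CPM. Same-numbered mice were compared by the correlation of their deviations from the group mean (log2 CPM, prior count 2). NGT and T1D numbers correlated at r = 0.583, 0.647 and 0.283 and were taken as pairs from the data alone, whereas T1D and Lira numbers, at -0.244, 0.615 and 0.271, were not. Alternatives were DESeq2 1.42.0, limma 3.58.1 on log2(FPKM + 1) or log2(FPKM + 0.1), library sizes, edgeR's robust option, no filter, 2-group fits, the replicate block, no fold threshold and leaving out each mouse. The members, gene lists and alternatives were chosen with earlier results of these data known. Named pathway genes are the 3 most abundant per list and those with an unadjusted p under 0.05. Values of some genes are not reported here.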

Additional observations from a re-analysis of the deposited data

How the results depend on the processing

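Of 360 alternative log2 fold changes of the members, 338 kept their direction and 22 turned. Some settings could hardly move an estimate, so this share is no measure of robustness. Tlr2 in T1D against NGT stayed at 1.81 with edgeR's robust option, with only the 2 groups and without any 1 Lira mouse. In T1D against NGT, Tlr5 turned to -0.034 with library sizes, to -0.022 and -0.11 with limma on log2(FPKM + 1) and log2(FPKM + 0.1), and to -0.23 and -0.21 with the replicate block over all 9 libraries and over only the 2 groups. The block with only the 2 groups, whose pairs were taken from these same data, raised the members at an unadjusted p under 0.05 from 0 to 6. It changed no other call. Leaving out 1 mouse at a time gave T1D against NGT log2 fold changes of -0.18 to 3.12 for Tlr2, -0.26 to 0.63 for Tlr3, -0.93 to 0.34 for Tlr5, -0.31 to 0.89 for Tlr6 and -0.13 to 2.67 for Tlr8, all turning without T1D mouse 1 except Tlr5, which turned without T1D mouse 3, NGT mouse 2 or NGT mouse 3. The other members stayed above 0, at 0.25 to 4.18 for Tlr9, 0.02 to 2.70 for Tlr13, 0.07 to 2.34 for Tlr7, 0.17 to 2.14 for Tlr1 and 0.20 to 1.09 for Tlr4, each highest without NGT mouse 1. In Lira against T1D the ranges were -2.15 to 0.59 for Tlr1, -2.16 to 0.56 for Tlr2, -0.65 to 0.11 for Tlr4, -1.13 to 0.064 for Tlr6, -1.12 to 0.91 for Tlr7, -2.03 to 0.88 for Tlr8, -0.71 to 0.83 for Tlr9, -1.61 to 0.98 for Tlr13, -0.91 to -0.02 for Tlr3 and 0.03 to 1.30 for Tlr5. Members at an unadjusted p under 0.05 numbered 0 to 2 in T1D against NGT (Tlr2 and Tlr9 without NGT mouse 1), 0 to 2 in Lira against T1D (Tlr3 and Tlr5 without T1D mouse 3) and 0 to 1 in the F test (without NGT mouse 1), and 0 members were called in any of these fits. The cause of these changes was not tested. Few counts limit Tlr9, Tlr13 and Tlr1, which had as few as 0, 2 and 2.06 in a library.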
